A study of Mus musculus with 4 samples.

Results

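The genes described are Cdk inhibitor genes of the Ink4 and Kip families. They come from the gene names on the arrays that match Cdkn1 or Cdkn2 followed by a letter from a to d, a rule that reads names and no measured value. Those described are Cdkn2a, Cdkn2c, Cdkn2d and Cdkn1b, which make 4 of 18354 gene names and hold 128 of 474380 probes. Another 26 probes carry a joint name for the promoter that Cdkn2c shares with Faf1, and 0 probes carry the name Cdkn2b.

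The fibroblasts were primary cultures from C57BL/6 mouse embryos of day 12.5, taken at passage 2. They were wild type or carried the L307R change in both copies of Phc2 (Phc2 L307R/L307R). ChIP does not measure RNA, so neither the cell type nor the genotype can be checked here against marker genes. Both genotypes were grown in the same medium with fetal calf serum, and both were taken through chromatin immunoprecipitation with an antibody to Ring1B, amplification of the DNA by T7 RNA polymerase and hybridisation to promoter arrays (ChIP-on-chip), with input DNA in Cy3 and precipitated DNA in Cy5. By its title the study concerns polymers of SAM domains and the grouping of PRC1 in the nucleus, and the arrays ask whether Ring1B sits at promoters to the same degree in both genotypes. The 4 arrays are of 2 designs with 0 probes in common. All 4 genes lie on array design 1, which was hybridised once per genotype. The labels do not say how many embryos or cultures went into an array.

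Ink4 proteins bind Cdk4 and Cdk6 and block their pairing with D cyclins, which keeps the retinoblastoma protein active and the cell in G1. Kip proteins instead bind cyclin and Cdk together and restrain Cdk2. Ring1B is the catalytic subunit of Polycomb repressive complex 1 (PRC1), which ubiquitinates histone H2A, and Phc proteins join PRC1 complexes through a SAM domain that forms polymers. The Ink4a/Arf locus, Cdkn2a, is a textbook Polycomb target. Its release from Polycomb repression goes with senescence of cultured fibroblasts, and loss of Bmi1 raises its expression.

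Ring1B enrichment is given as the log2 ratio of precipitate over input, centred on the median of each array. The level of a promoter is the mean of the window of 3 neighbouring probes with the highest value over both genotypes, with the SD over these 3 probes. A promoter is called bound where this mean is at least 1 in either genotype, and lower or higher in Phc2 L307R where the window differs by at least 1 with all 3 probes on the same side, that is at least 2-fold. Each value comes from 1 array, so there is no error between cultures and no test. Each value is an average over many cells, so fewer cells with Ring1B and less Ring1B per cell cannot be told apart.

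Cdkn2a has alternative first exons with separate promoters: the upstream start yields p19Arf, which shields p53 by binding Mdm2, and the downstream start yields p16Ink4a, the Cdk4 and Cdk6 inhibitor. Both promoters are shown because the probes named Cdkn2a lie at the upstream one, as described further on, and because the pair differ in CpG content, the sequence feature that Polycomb complexes favour in mammals. The sequences are from RefSeq (GRCm38.p6), in the direction of transcription, from 250 bases before to 50 bases after the start, with every CG in capitals. The upstream (Arf) promoter lies at chr4:89294570-89294869 and the downstream (Ink4a) promoter at chr4:89282143-89282442, both on the minus strand.
Cdkn2a upstream start: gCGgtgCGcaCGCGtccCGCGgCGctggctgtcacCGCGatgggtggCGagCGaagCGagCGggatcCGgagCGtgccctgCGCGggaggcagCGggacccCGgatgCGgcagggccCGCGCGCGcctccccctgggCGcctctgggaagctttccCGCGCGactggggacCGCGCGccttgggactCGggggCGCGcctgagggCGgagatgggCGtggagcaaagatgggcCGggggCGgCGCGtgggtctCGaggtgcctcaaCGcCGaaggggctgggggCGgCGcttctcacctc
Cdkn2a downstream start: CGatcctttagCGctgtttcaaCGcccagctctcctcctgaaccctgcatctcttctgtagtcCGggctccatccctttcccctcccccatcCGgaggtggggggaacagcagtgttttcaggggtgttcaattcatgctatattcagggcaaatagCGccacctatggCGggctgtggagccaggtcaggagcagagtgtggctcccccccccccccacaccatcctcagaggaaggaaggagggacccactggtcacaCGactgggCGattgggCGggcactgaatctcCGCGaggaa

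The promoters of the other genes follow for comparison: Cdkn2c, which encodes p18Ink4c, at its upstream start (chr4:109666707-109667006, minus strand), Cdkn2d, which encodes p19Ink4d (chr9:21291160-21291459, minus strand), and Cdkn1b, which encodes p27Kip1 (chr6:134920151-134920450, plus strand).
Cdkn2c upstream start: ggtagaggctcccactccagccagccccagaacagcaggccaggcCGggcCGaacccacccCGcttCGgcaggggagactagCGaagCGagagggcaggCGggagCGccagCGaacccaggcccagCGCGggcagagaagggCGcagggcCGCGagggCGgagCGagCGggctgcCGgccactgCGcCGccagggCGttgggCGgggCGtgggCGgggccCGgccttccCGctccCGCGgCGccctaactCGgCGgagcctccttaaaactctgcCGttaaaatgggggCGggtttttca
Cdkn2d: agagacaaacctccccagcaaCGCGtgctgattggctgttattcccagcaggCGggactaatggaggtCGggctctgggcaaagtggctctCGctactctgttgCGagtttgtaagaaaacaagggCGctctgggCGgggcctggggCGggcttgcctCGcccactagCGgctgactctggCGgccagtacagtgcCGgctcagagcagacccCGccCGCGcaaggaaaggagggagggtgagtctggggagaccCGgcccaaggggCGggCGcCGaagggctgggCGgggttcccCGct
Cdkn1b: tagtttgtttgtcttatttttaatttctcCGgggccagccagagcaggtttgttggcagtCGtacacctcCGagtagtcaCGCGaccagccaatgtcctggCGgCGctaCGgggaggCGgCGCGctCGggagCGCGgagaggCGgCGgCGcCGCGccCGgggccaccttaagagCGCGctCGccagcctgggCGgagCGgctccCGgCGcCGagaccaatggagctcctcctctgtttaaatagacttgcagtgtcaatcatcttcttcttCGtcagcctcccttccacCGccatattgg

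The upstream Cdkn2a promoter held 45 CG in 300 bases at 77.0% G and C, against 12 CG at 60.3% in the downstream one. Of 32851 RefSeq promoters of this length, 1.93% held as many CG as the upstream promoter and 39.6% as many as the downstream one, and the median was 7. Cdkn2c held 33 CG at this start and 8 at a second, downstream start, Cdkn1b held 30 and Cdkn2d 22. The GC box GGGCGG, the core letters of Sp1 sites, was counted on both strands. It occurred 5 times in the Cdkn2d promoter, 4 times in that of Cdkn2c, 3 times in the upstream Cdkn2a promoter and 1 time each in the downstream Cdkn2a and the Cdkn1b promoters. At least 1 GC box stood in 35.7% of all promoters. These counts describe letters and do not show binding.

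No source used here names the genome build of the probes, so array positions below are those of the deposited files and are never set against GRCm38.p6 directly. Distances between genes can be compared if the probes begin at a like distance from the start of each gene. The low end of the Cdkn2a probes lies 771747 bp from the low end of the Ifnb1 probes, 414338 bp from that of Ifne1 (now Ifne) and 572564 bp from that of Klhl9, 3 neighbours on the same strand. In RefSeq these genes start 771825, 414418 and 572111 bp from the upstream Cdkn2a start, gaps of 78, 80 and 453 bp. Measured to the downstream start, the gaps are 12349, 12347 and 12880 bp, since the 2 starts are 12427 bp apart. This spacing places the probes named Cdkn2a at the promoter of Arf. They span 7863 bp, so a stretch around the Ink4a start is not analysed here.

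At Cdkn2a both genotypes held Ring1B above the cut-off. The highest window was formed by the first 3 of its 40 probes, at chromosome 4, 88763390 to 88764192. In wild type these probes read 1.91, 1.70 and 1.15, and in Phc2 L307R 2.74, 2.44 and 2.43. Each probe was thus higher in Phc2 L307R, and the lowest value there exceeded the highest of wild type. The window means were 1.59 (SD 0.39, 3 probes) in wild type and 2.54 (SD 0.18) in Phc2 L307R, a difference of 0.95 (SD 0.29), or 1.93-fold. This stayed below the 2-fold size rule. In the order of all 17649 promoters the wild-type level stood at or above 81.3% and the Phc2 L307R level at or above 97.1%. Of the 4565 bound promoters of array design 1, 112 (2.45%) had a difference at least as high, while their median difference was -0.17 and the central range from 5% to 95% ran from -0.94 to 0.75. The arrays of the 2 genotypes were not scanned on the same day, so scan day and genotype cannot be told apart here or in any comparison below. The window is the outermost of the probes named Cdkn2a, so the enriched stretch may extend past them.

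The direction of this difference depended on which wild-type values were used. The deposited value tables hold a second set of values per array. For Phc2 L307R on array design 1 these correlated with the scanner values at 0.999, but for wild type at only 0.854, and what the wild-type table was made from is unknown. In the wild-type table the same 3 probes read 2.95, 3.14 and 3.38, a mean of 3.15 (SD 0.22), which is 1.56 above the wild-type scanner value at the same window. With the tables the difference at Cdkn2a was -0.61. The tables hold the same Phc2 L307R arrays, so they are no independent repeat of any comparison. The Phc2 L307R level thus lay between both sets of values labelled wild type.

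Along the rest of the Cdkn2a probes the sign changed with position. The first 8 probes, 88763390 to 88765422, were all higher in Phc2 L307R, with means of 1.34 and 2.25 and a mean difference of 0.91 (SD 0.31). The wild-type table had a mean of 2.76 over these probes, and each of the 8 lay above its Phc2 L307R value. The next 5 probes, 88765479 to 88766078, were all lower in Phc2 L307R, at 1.10 against 1.77. The widest gap among them was at the first, which read 3.23 in wild type, 1.39 in Phc2 L307R and 2.39 in the wild-type table. Its input signal was not well above background on the wild-type array, nor was that of the next probe on either array. With the window chosen as highest in wild type, 88765378 to 88765637, the levels were 2.41 (SD 1.12) and 1.69 (SD 0.35), a difference of -0.72 (SD 1.15), smaller than the SD over its probes. Loess within arrays and scaling to equal median absolute deviation led to this window too and gave -0.77 and -0.82, whereas at the first 3 probes they gave 1.02 and 0.85. A window of 5 probes gave 1.01, which meets the size rule. Beyond 4 kb from the low end the means were 0.55 and then 0.64 per 2 kb in wild type, against 1.07 and then 0.84 in Phc2 L307R.

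Counted over all 40 Cdkn2a probes, 27 were higher in Phc2 L307R and 13 lower, where 45.4% of the named probes of array design 1 were higher. The value tables gave 15 higher and 25 lower, against 45.7% of all. The number of probes at or above 1 was 21 in wild type, 22 in Phc2 L307R and 23 in the wild-type table. The longest unbroken row of such probes began at the low end each time. It held 6 probes (1728 bp) in wild type, 10 (2248 bp) in Phc2 L307R and 11 (2422 bp) in the wild-type table. The wild-type row broke at a single probe that read 0.98, just under the cut-off. The probes after it reached 1 again up to 88765811, where the row of the wild-type table ended, so these lengths do not order the widths. Of all named probes of the design, 14.2% reached 1 in wild type and 12.7% in Phc2 L307R.

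**Figure D1:**
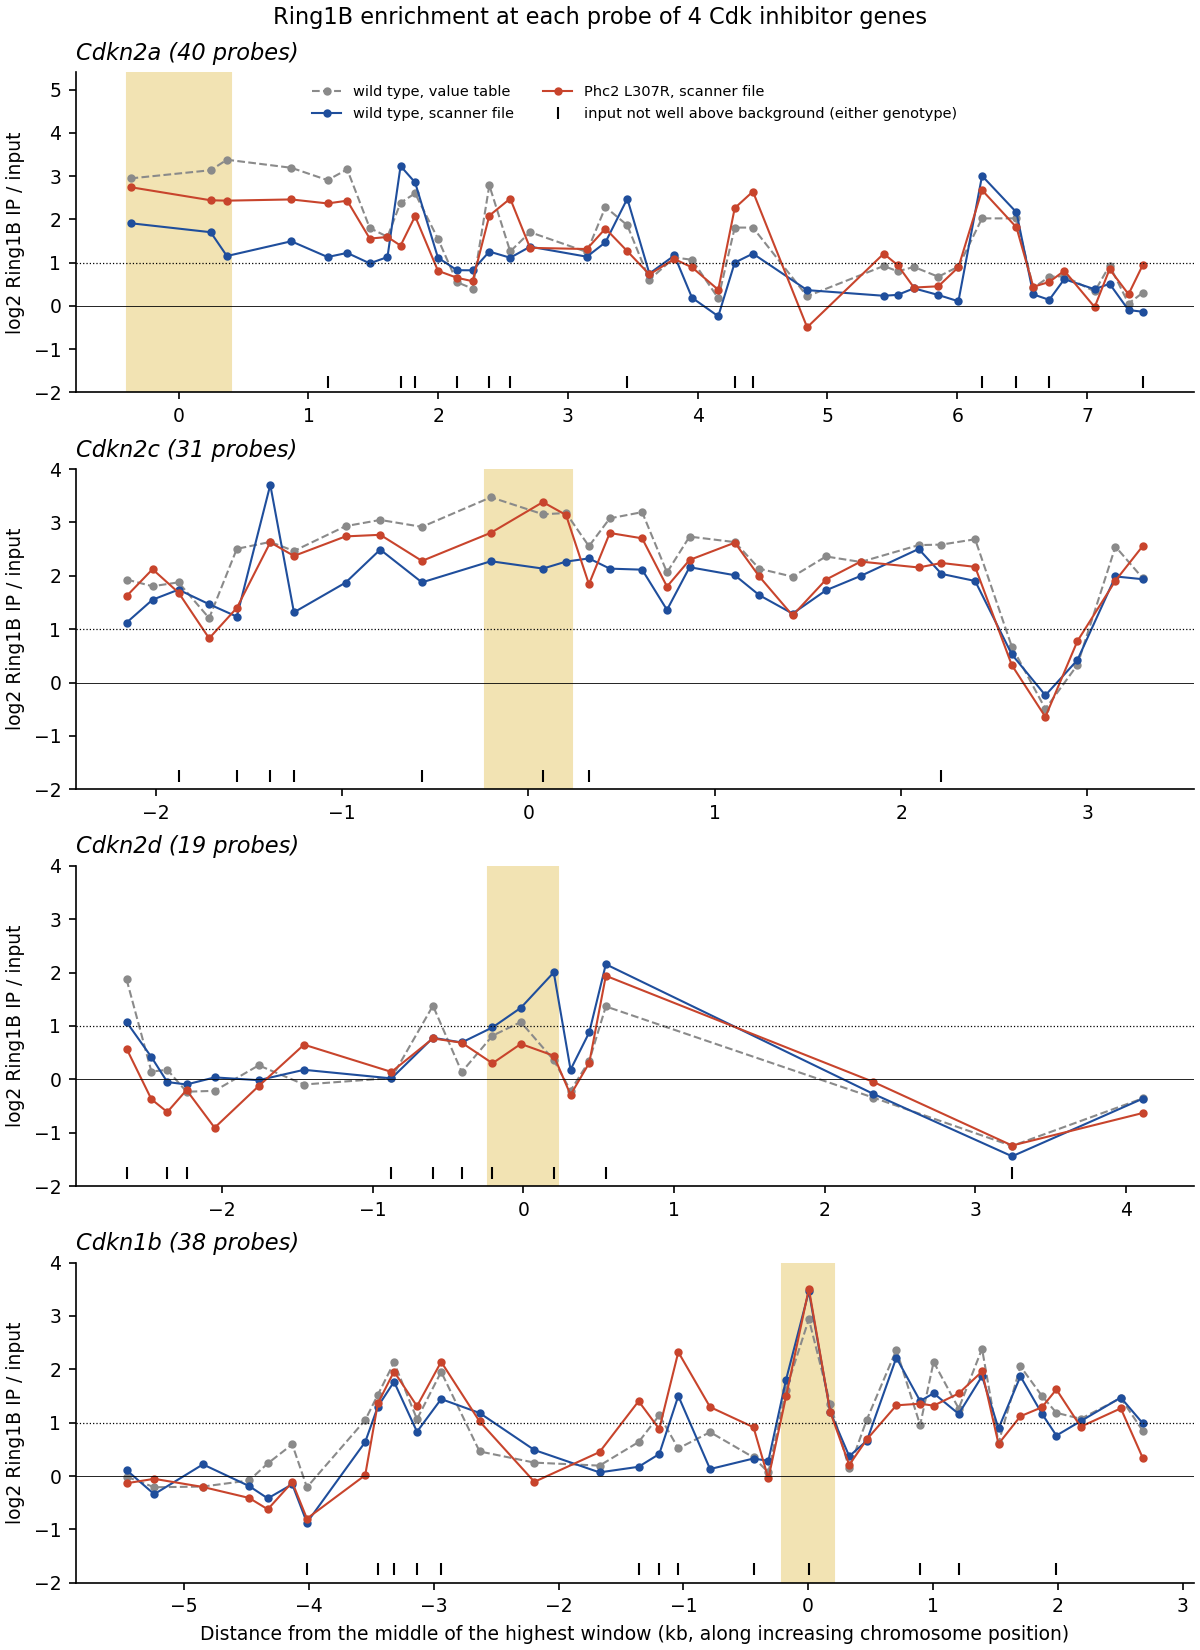
Ring1B log2 ratio (vertical axis) of every probe of each gene against its distance in kb from the middle of the highest window (horizontal axis, along increasing chromosome position), for wild type (blue) and Phc2 L307R (red) from the scanner files and for wild type from the value table (grey, dashed), with 1 array behind each line, the window shaded and the cut-off of 1 dotted. Ticks mark probes whose input was not well above background in at least 1 genotype. At Cdkn2a the first 8 red points lie above the blue and below the grey ones, while at Cdkn1b the lines run close together over the highest peak.

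Among the probes present, Cdkn2c had the longest unbroken row at or above 1 of the genes. In wild type its row and that of Cdkn2a both begin at the lowest probe of the gene. Either may extend further, so the full widths cannot be ordered. In wild type 26 neighbouring probes in a row reached 1, over 4613 bp from 109158936 to 109163548 on chromosome 4, and the same 26 did in the wild-type table. In Phc2 L307R the longest such row was 22 probes over 4021 bp, because 1 probe near the low end read 0.83. Single probes ran from -0.24 to 3.70 in wild type and from -0.64 to 3.38 in Phc2 L307R. The probe at 3.70 had input not well above background on both arrays and read 2.63 in the wild-type table. All values dipped below 1 at 3 neighbouring probes, 109163694 to 109164090, with a wild-type mean of 0.24, a Phc2 L307R mean of 0.15 and a mean of 0.17 in the wild-type table.

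Its highest window, 109160891 to 109161353, read 2.27, 2.13 and 2.27 in wild type. The Phc2 L307R values were 2.81, 3.38 and 3.14. All 3 probes were higher in Phc2 L307R, without overlap. The means were 2.22 (SD 0.08) and 3.11 (SD 0.29), a difference of 0.88 (SD 0.36) or 1.85-fold, below the size rule. Of the 4565 bound promoters of the design, 152 (3.33%) had a difference at least as high. The middle probe had the widest gap, and its input was not well above background in Phc2 L307R. In the wild-type table the window read 3.47, 3.15 and 3.18, a mean of 3.27, with a difference of -0.16, so here too the Phc2 L307R level lay between both sets of wild-type values. Normexp background correction in place of Agilent's gave a difference of 0.30.

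Over all 31 Cdkn2c probes, 22 were higher in Phc2 L307R with the scanner values and 5 with the value tables. The means over all its probes were 1.77 in wild type, 2.02 in Phc2 L307R and 2.29 in the wild-type table. The mean difference between genotypes over the 31 probes was 0.25, with an SD of 0.51 among the single probes.

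Past the dip below 1, Ring1B enrichment was found again in the promoter that Cdkn2c shares with Faf1, a gene of ubiquitin-dependent protein turnover. The 26 probes of this shared promoter begin at 109164560. Its window, 109165196 to 109165517, stood at 2.06 in wild type and 1.88 in Phc2 L307R, a difference of -0.18 (SD 0.25), and at 2.37 in the wild-type table. A run of 5 probes from 109164740 to 109165386 was lower in Phc2 L307R, at 1.09 against 1.94, opposite in sign to the Cdkn2c window. The wild-type table had 1.66 there. Within the first 2 kb the mean was 1.54 in wild type and 1.18 in Phc2 L307R. In the next 2 kb it was -0.16 and -0.02, so the enriched stretch ended within this shared promoter in both genotypes.

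Cdkn2d, on chromosome 9, had the lowest level of the genes. Its 19 probes are sparse at the high end and only 4 reached 1 in wild type, 1 in Phc2 L307R and 4 in the wild-type table. The window 21041332 to 21041784 read 0.97, 1.34 and 2.00 in wild type. The Phc2 L307R values were 0.30, 0.66 and 0.44. All 3 probes were lower in Phc2 L307R, without overlap. The means were 1.44 (SD 0.52) and 0.47 (SD 0.18), a difference of -0.97 (SD 0.51), or 1.96-fold lower, just short of the size rule. With these values and this window Cdkn2d was therefore bound in wild type and not in Phc2 L307R. The wild-type call depended on the processing. The wild-type level was 0.80 with only probes well above background and 0.66 after normexp. It was 0.92 with the window chosen in Phc2 L307R and 0.45 over all probes, again below 1. It stayed above 1 after loess (1.49), with equal median absolute deviation (1.47) and with 5-probe windows (1.31).

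A difference as low as that of Cdkn2d or lower occurred at 209 (4.58%) of the 4565 bound promoters of the design. The input signal of 2 of the 3 window probes was not well above background on both arrays, as it was not for 5 of 19 probes in wild type and 10 of 19 in Phc2 L307R. The setting that drops such probes gave -0.57. Loess within arrays and scaling to equal median absolute deviation both gave -1.02, past the size rule, and normexp gave -0.40. The wild-type table read 0.82, 1.07 and 0.36 at the window, a mean of 0.75 (SD 0.36) and a difference of -0.28, so the table did not reach the cut-off of 1 there either. Phc2 L307R lay below both sets of wild-type values. Over 8 neighbouring probes, 21040931 to 21042135, every probe was lower in Phc2 L307R, with means of 1.12 and 0.60. The single differences ran from -1.56 to -0.005, and 3 of these 8 probes were higher with the tables. Input was not well above background at 5 of the 8 in Phc2 L307R and at 3 in wild type.

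Cdkn1b, on chromosome 6, showed the closest match between genotypes. Its window, 134885884 to 134886282, read 1.81, 3.46 and 1.20 in wild type, 1.49, 3.51 and 1.20 in Phc2 L307R, and 1.62, 2.94 and 1.35 in the wild-type table. The means were 2.16 (SD 1.17), 2.07 (SD 1.26) and 1.97 (SD 0.85), and the difference was -0.09 (SD 0.20) with the scanner values and 0.09 with the tables. Both are smaller than the SD over the probes. The peak rested on its middle probe, whose input was not well above background on both arrays.

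Over all 38 Cdkn1b probes, 19 were higher and 19 lower in Phc2 L307R, and 17 reached 1 in wild type, 20 in Phc2 L307R and 19 in the wild-type table. The probes nonetheless differed locally. A run of 6 from 134884386 to 134885667, just below the window, was higher in Phc2 L307R throughout, with means of 0.44 and 1.21. The wild-type table gave 0.61 there, and 5 of the 6 were higher in Phc2 L307R against it. Input was not well above background at 4 of these 6 probes in Phc2 L307R and at 1 in wild type.

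**Figure D2:**
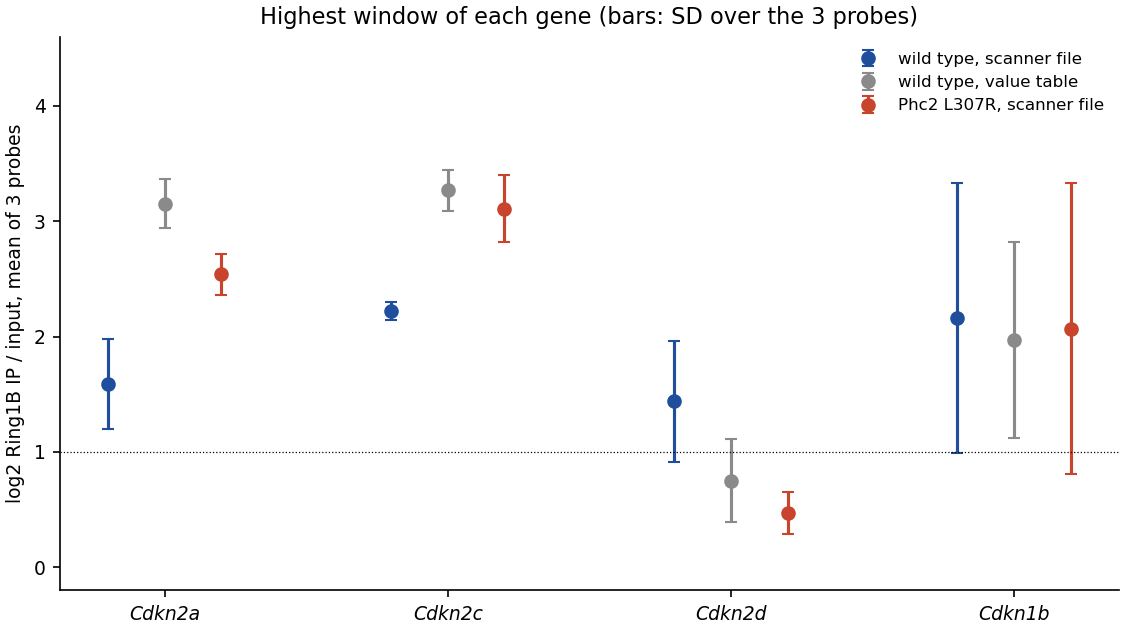
Mean Ring1B log2 ratio of the 3-probe window (vertical axis) of each gene in wild type (blue) and Phc2 L307R (red) from the scanner files and in wild type from the value table (grey), with bars for the SD over the 3 probes and a dotted line at the cut-off of 1. Cdkn2a reads 1.59 in blue, 2.54 in red and 3.15 in grey and Cdkn2c 2.22, 3.11 and 3.27, while Cdkn1b lies between 1.97 and 2.16 throughout.

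Set beside each other in the scanner values, all 4 genes were bound in wild type, where 45.4% of all promoters were. In Phc2 L307R 3 of 4 were bound, where 39.3% of all promoters were. The same 3, all but Cdkn2d, were bound in both genotypes, as were 33.7% of all promoters. The wild-type level of Cdkn2d was below 1 in the wild-type table (0.75) and with only probes well above background (0.80). Of the 4, 0 were lower by the size rule, which took 3.01% of 8997 bound promoters, and 0 were higher, which took 1.64%, or 4.66% for both directions together. Cdkn2a and Cdkn2c had differences above 0.8, as 3.88% of bound promoters did, and Cdkn2d one below -0.8, as 6.89% did. The cut of 0.8 was not planned and lies just under the sizes seen at these genes, so the shares only describe. With the value tables the 4 genes likewise gave 0 calls in either direction, against 8.24% of bound promoters lower and 0.585% higher. Cdkn2d could not be called there, as it was not bound. Its window chosen on the tables stood at 0.78 in wild type and 0.59 in Phc2 L307R. Phc2 L307R lay between both sets of wild-type values at Cdkn2a, Cdkn2c and Cdkn1b, 3 of 4, compared with 26.7% of bound promoters. As its own values were nearly the same in both sets, this is the same observation as a change of sign. At Cdkn1b that change was only from -0.09 to 0.09. At Cdkn2a and Cdkn2c the sign went from above 0 with the scanner values to below 0 with the tables, as at 12.6% of bound promoters. At 5.3% of bound promoters the wild-type sets differed by at least 1 in the window, and Cdkn2a and Cdkn2c were among these, with 1.56 and 1.04.

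In wild type the order of the levels was Cdkn2c, Cdkn1b, Cdkn2a and Cdkn2d, and no neighbours in it differed by more than the larger of their SDs over probes. In Phc2 L307R it was Cdkn2c, Cdkn2a, Cdkn1b and Cdkn2d, where Cdkn2c stood 0.57 above Cdkn2a and Cdkn1b stood 1.60 above Cdkn2d, both beyond that SD. Cdkn2a and Cdkn1b did not differ beyond it. The wild-type table had the order of Phc2 L307R and not that of the wild-type scanner values, with Cdkn2a 1.18 above Cdkn1b and level with Cdkn2c within the SD. Input signal was dimmer in Phc2 L307R on this design, well above background at 75.0% of probes against 85.7%. Where probes with a dim channel on either array were left out, the differences were 0.95 at Cdkn2a, 0.56 at Cdkn2c, -0.57 at Cdkn2d and -0.35 at Cdkn1b. Of the probes of the 4 genes, 0 were saturated and 0 had precipitate signal that was not well above background.

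**Figure D3:**
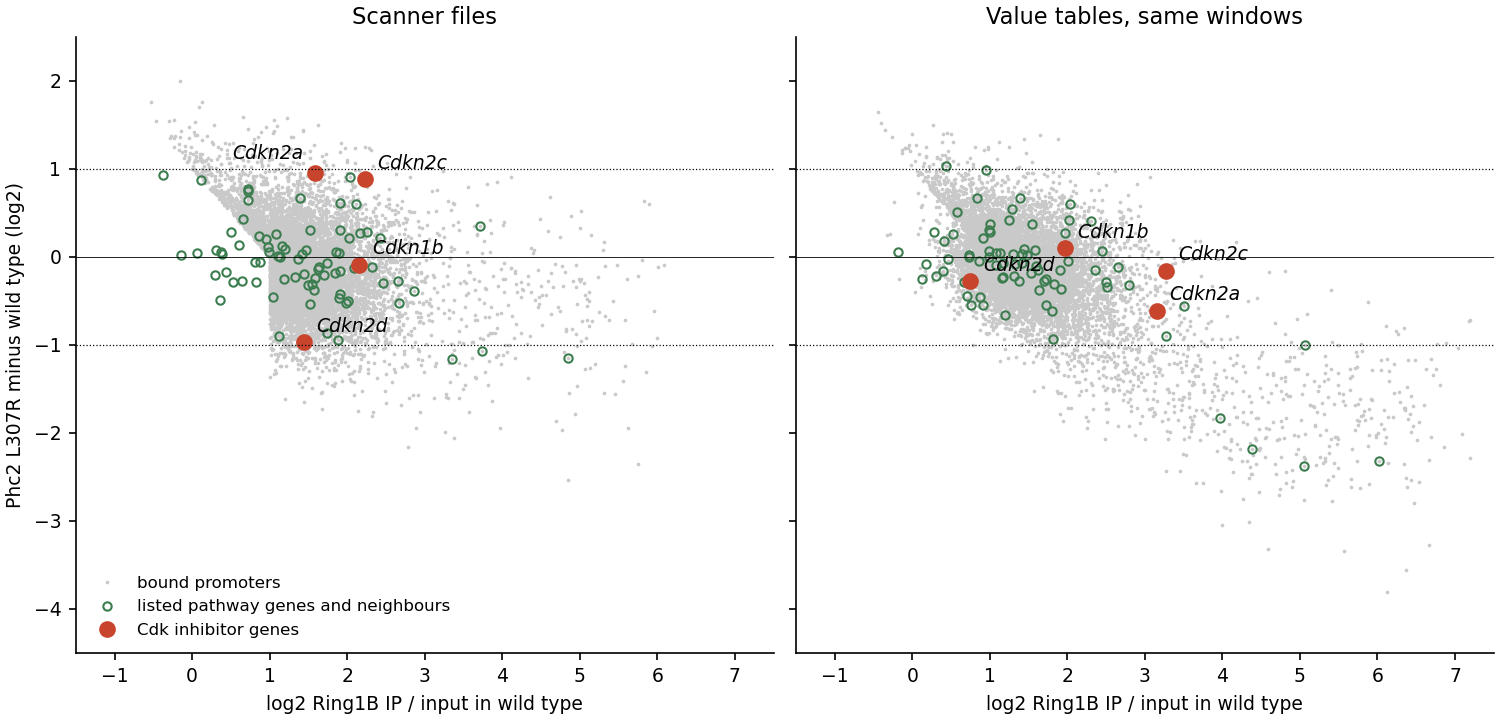
Window level in Phc2 L307R minus wild type (vertical axis, log2) against the wild-type level (horizontal axis, log2) for the 8997 bound promoters of both array designs (grey), the listed pathway genes and neighbours (green circles) and the Cdk inhibitor genes (red), with scanner values on the left, value tables at the same windows on the right and dotted lines at the size rule. Cdkn2a stands at 0.95 on the left and -0.61 on the right and Cdkn2c at 0.88 and -0.16, whereas Cdkn1b stays near 0; the straight lower left edge of the grey points on the left comes from the cut-off of 1.

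The rest of the pathway is given by gene lists, described by counts, with the same background shares. Of the genes on which the inhibitors act, the Cdk4, Cdk6, cyclin D, Rb and E2F genes had 19 promoters, of which 12 were bound in wild type and 16 in Phc2 L307R. The median difference over these 19, bound or not, was -0.20, beside -0.05 over all promoters and -0.14 over the bound ones. By the size rule 1 was lower and 0 higher. That promoter was Ccnd2, the gene of a D cyclin and the highest of the list, at 4.85 in wild type and 3.70 in Phc2 L307R, a difference of -1.15 (SD 0.24) and -2.32 with the value tables, but -0.92 after loess and -0.34 over all probes, short of the rule. Ccnd1, another D cyclin gene and the next highest, stood at 2.86 and 2.47. The promoter shared by Exoc3l and E2f4 had the highest difference of the list, 0.77 (SD 0.98).

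The list of Cdk2, Cdk1 and cyclin E, A and B genes, which also holds the Cdc25 phosphatases and the Cdk-activating kinase that act on these Cdks, had a median level of 0.58 in wild type, where the list before had 1.37. Of 18 promoters, 6 were bound in wild type, 4 in Phc2 L307R and 0 called in either direction. Cdc2a (now Cdk1) was highest in wild type at 1.99, followed by Mnat1, a subunit of the Cdk-activating kinase, at 1.85. The differences ran from -0.90 at Ccna2, the cyclin A2 gene, to 0.93 at Cdk7, the Cdk-activating kinase gene, which was not bound.

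The Arf and p53 arm had 9 promoters, 8 of them bound in wild type and 9 in Phc2 L307R, and 0 were called. The p53 target Bax was higher by the rule with the value tables, at 0.75 (SD 1.44) with the scanner values and 1.03 with the tables. The median difference was -0.01. Trp53, the p53 gene, was highest in wild type, at 2.42 against 2.64 in Phc2 L307R. Pmaip1, which encodes the p53-induced death factor Noxa, had the highest difference of the list. It stood at 2.04 in wild type and 2.94 in Phc2 L307R, a difference of 0.91 (SD 0.24), but at 3.51 in the wild-type table, with a difference of -0.56 there. Mdm2, the ubiquitin ligase that Arf inhibits, stood at 1.11 and 1.12. The lowest difference was at Bbc3, the Puma gene, with -0.47 (SD 0.81).

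Polycomb genes known for control of the Ink4a/Arf locus had 11 promoters, with 9 bound in wild type, 10 in Phc2 L307R and 0 called. Bmi1, whose product represses Cdkn2a, was highest, at 3.71 in wild type and 4.06 in Phc2 L307R, a difference of 0.35 (SD 0.94) that was -1.0 with the value tables. Cbx8, a chromodomain subunit of PRC1 that also represses the locus, was next at 2.67 and 2.14, a difference of -0.53, and -1.83 with the tables. Cbx7, another such subunit, had the highest difference, 0.61 (SD 0.47). The list's median difference was 0.12 with the scanner values and -0.22 with the tables, where 2 promoters, Bmi1 and Cbx8, were lower.

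Other upstream regulators of Cdk inhibitor genes had 14 promoters, all of them bound in wild type and 12 in Phc2 L307R. Of these, 1 was lower and 0 higher. It was Tbx2, a T-box repressor of Cdkn2a, at 3.74 and 2.67, a difference of -1.07 (SD 0.57) and -2.38 with the tables, but -0.86 after loess and -0.73 over all probes, short of the rule. Its relative Tbx3, next highest at 2.65, had a difference of -0.28 (SD 0.96) and of -0.90 with the tables at the same window. With the windows chosen on the tables it was lower by the rule as well. Jun, an AP-1 gene, had the highest difference at 0.60 (SD 0.73).

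On the chromosome, the neighbours of the Cdk inhibitor genes gave 6 promoters, with 3 bound in each genotype. Dmrta1, a DM-domain gene on the same chromosome as Cdkn2a, was highest and the 1 lower by the rule, at 3.36 and 2.19, a difference of -1.16 (SD 0.48) and -2.19 with the tables, but short of the rule after loess (-0.93), with 5-probe windows (-0.94), with the window chosen in Phc2 L307R (-0.84) and over all probes (-0.47). Faf1 at its own probes was next, at 2.03 and 2.24. Mtap, a methionine salvage gene near Cdkn2a, was bound at 1.39 and 2.05, and its difference of 0.67 (SD 0.13) was also 0.67 with the tables. Slc44a2, a choline transporter gene, had the highest difference, 0.87 (SD 0.10), from 0.11 to 0.99, which left it under the cut-off in both genotypes. In the wild-type table it stood at 1.08, with a difference of -0.09. Across these 6 lists, all 3 promoters lower by the rule stood above 3 in the wild-type scanner values. Bmi1 also stood above 3 there, at 3.71, and was not lower, with a difference of 0.35. The level of 3 was not planned, and a link between level and difference was not tested. No window of the 4 Cdk inhibitor genes stood above 3 in the scanner values of wild type. In the wild-type table Cdkn2a at 3.15 and Cdkn2c at 3.27 did.

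The promoters of array design 1 with the pair of window levels nearest to Cdkn2a were Hoxa4, a homeobox gene, at a distance of 0.03 on the log2 scale, Rsbn1 at 0.06 and Pi15 at 0.06, and 12 promoters lay within 0.2. In the wild-type table Hoxa4 stood at 3.41, near the 3.15 of Cdkn2a, but Rsbn1 stood at 1.94 and Pi15 at 2.37. Nearest to Cdkn2c were Hoxa5 (0.07), the chemokine gene Cxcl5 (0.08) and Pcbp1 (0.08), with 5 promoters within 0.2. Cdkn1b and Cdkn2d lay in crowded ranges, with 93 and 99 promoters within 0.2. Nearest to Cdkn1b were 2310005N03Rik, Hadhb and Cbfb, and nearest to Cdkn2d were Ube3c, B4galnt3 and Cnot4. The likeness rests on 2 values per promoter, 1 per genotype.

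**Figure D4:**
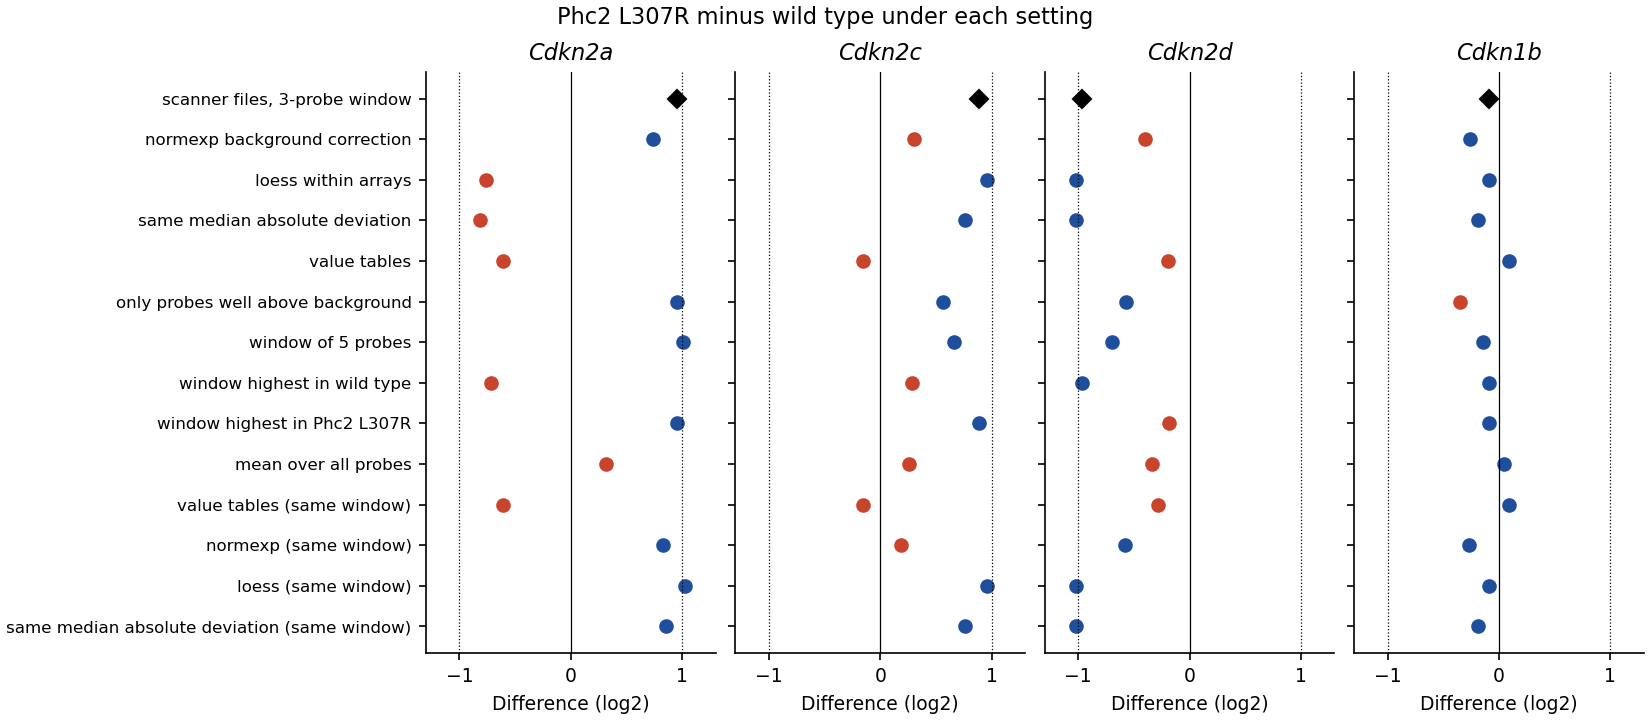
Phc2 L307R minus wild type (horizontal axis, log2) for each Cdk inhibitor gene under each way of processing (rows), with the values of the report as black diamonds, other settings in blue where they moved by less than the SD over the 3 probes and in red where they moved by more, and dotted lines at the size rule of 1 in both directions. Cdkn2d lies between -1.02 and -0.19 under every setting drawn, while Cdkn2a runs from -0.82 to 1.02.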

How the data were processed

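Ring1B ChIP-on-chip was measured on 4 2-colour arrays, 1 per genotype on each of 2 designs, and the labels name the genotypes. Agilent Feature Extraction 10.7.3.1 made the scanner files, per the file headers. These deposited files give the intensity of each spot and the log10 ratio of its Cy5 to its Cy3 signal. A comparison with those ratios showed that the authors' value tables are in log10 as well, with array medians of -0.056 and -0.0342 for wild type and Phc2 L307R on design 1 and -0.0615 and -0.0393 on design 2; the origin of the wild-type tables is unknown.

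Control spots and outlier flags were left out, saturated spots kept, log10 ratios converted to log2 and each array centred on its median. Windows were 3 neighbouring probes within 2000 bp, and promoters without one were not counted. Centring hides any change common to every promoter. Precision is limited by the number of arrays. The noise of a probe's difference, from successive probes, was 0.43 (robust SD) on design 1. Named genes were the 4 Cdk inhibitor genes of the report; of each other list those past the size rule, the 2 highest in wild type and those with the lowest and highest difference; and the 3 promoters nearest to each gene in both window levels. Mdm2 and Mtap were named beyond this, after their values were seen. The members and lists were chosen with earlier results of these data known. A further 2 names that match the rule are not reported here. Alternatives included normexp (offset 50, on mean and background signals), loess within arrays, equal median absolute deviation, the value tables, other windows and filters, a size rule of 1.5-fold and a bound cut-off of 1.5. R 4.3.3 with limma 3.58.1 was used for normexp and loess, and matplotlib 3.10.9, numpy 2.4.6, pandas 2.3.3 and Python 3.11.15 for the rest.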

Additional observations from a re-analysis of the deposited data

How the results depend on the processing

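Over the 9 planned settings of each gene, Cdkn2d had a difference below 0 under all 9 (-1.02 to -0.19), while differences above 0 came under 8 of 9 at Cdkn2c, 5 of 9 at Cdkn2a and 2 of 9 at Cdkn1b. Cdkn2a went from 0.95 to -0.77 after loess, -0.82 with arrays scaled to equal median absolute deviation, -0.61 with the value tables, -0.72 where the window was chosen in wild type and 0.32 as the mean over all probes. Loess and the scaling chose another window; at the window of the report, a comparison added after seeing the data, they gave 1.02 and 0.85, and the value tables -0.61. Cdkn2c went from 0.88 to 0.30 after normexp background correction (0.19 at the window of the report, added later), -0.16 with the value tables (also at that window), 0.28 where the window was chosen in wild type and 0.25 over all probes. Cdkn2d went from -0.97 to -0.40 after normexp, -0.19 with the value tables (-0.28 at the window of the report, added later), -0.19 where the window was chosen in Phc2 L307R and -0.34 over all probes. Cdkn1b was -0.35 with only probes well above background. The size rule was met by Cdkn2a with 5-probe windows (1.01) and by Cdkn2d after loess (-1.02) and the equal scaling (-1.02).

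Promoters lower in Phc2 L307R numbered 271, but 422 with the equal scaling, 732 with the value tables, 169 with only probes well above background, 107 with 5-probe windows, 467 and 90 where windows were chosen in 1 genotype (wild type, then Phc2 L307R), 12 over all probes and 1212 at 1.5-fold. The median difference of bound promoters, -0.14, was -0.34 after normexp and -0.27 with the equal scaling. Those higher numbered 148, but 11 after normexp, 52 with the value tables, 29 with only probes well above background, 46 with 5-probe windows, 32 and 295 with windows so chosen, 2 over all probes, 574 at 1.5-fold and 92 with bound from 1.5. On single array designs 92 to 179 were lower and 72 to 76 higher. No paired analysis was possible because the title numbers name array designs that share 0 probes, with 1 array per genotype.

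Input signal limits the ratios of some probes: it was not well above background at 12 of 40 Cdkn2a, 7 of 31 Cdkn2c, 10 of 19 Cdkn2d and 13 of 38 Cdkn1b probes in Phc2 L307R, against 7, 4, 5 and 5 in wild type.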
